A study of Drosophila melanogaster with 16 samples.

Results

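The comparison described here is that of ethanol vapor with humidified air in fly heads at the 4 recovery times, 30, 90, 180 and 210 min, whose arrays carried no transcripts of the male accessory gland or the gut. These are 8 of the 16 arrays of the series, 4 after ethanol and 4 after air, and the ethanol and air arrays were paired by time. The other 8 are the 6 exposed arrays of 0, 60 and 120 min and 2 arrays of unexposed flies, named A and B. The 8 arrays were chosen by their accessory gland and gut transcripts, so these genes are described below without a test.

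All flies were Drosophila melanogaster males of the Berlin background strain, 2 to 4 days old, with no transgene named. They spent 30 min at 25 °C in humidified air, or in air carrying ethanol vapor at 60% of saturation, both at 3.7 L/min, and recovered in vials with food. Each exposed array holds RNA from heads of 3 groups of 200 males joined before extraction, and the unexposed arrays hold flies given no treatment. There is 1 array for each exposure at each time, so pools of 1 time cannot be compared with each other. The p-values and standard errors (SE) of ethanol minus air measure the spread of the 4 differences over times, with each feature's variance drawn toward that of all features.

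The fly head carries the antennae and maxillary palps, the main olfactory organs, beside the eyes, brain and head fat body. Sensory hairs of the antenna hold neurons with odorant receptors, and support cells around them secrete odorant-binding proteins and odorant-degrading enzymes into the fluid of the hair. Ethanol vapor reaches these organs directly and also enters the body, where dehydrogenases oxidize it to acetate, while glutathione S-transferases and cytochrome P450s handle many other foreign compounds.

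Values are log2 expression of Affymetrix arrays, and a difference of 1 log2 is a 2-fold change. Features were tested where 4 or more of the 8 arrays read log2 4 or higher, which left 7931, 6958 of them with a single gene symbol. The arrays were even in level, with medians of 2.88 to 2.96, but the air array of 180 min stood apart in the upper part of its distribution. Its upper quartile was 7.96, against 7.71 to 7.82 in the other 7 arrays. The median ethanol minus air difference over all features was -0.18 at 180 min, against -0.01, -0.01 and 0.00 at 30, 90 and 210 min. Of all features, 34.0% lay above 0, 5.4% were higher in 4 of 4 pairs and 14.5% were lower in 4 of 4 pairs. After quantile normalization of the 8 arrays these shares were 48.4%, 9.42% and 10.3%, and list counts that moved by over 1.5 times with it are given both ways.

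Reproductive and digestive tract transcripts were near the level of unexposed heads in all 8 arrays. The mean of 40 male reproductive tract genes was 2.73 to 2.75 in the 4 air arrays, 2.70 to 2.77 in the 4 ethanol arrays and 2.71 to 2.74 in the unexposed arrays. In the 3 air arrays left out it was 4.72 to 5.82. Of the 40 genes, 1 reached log2 4 in each of the 8 arrays, EbpIII, at 14.77 ± 0.13 after air and 14.79 ± 0.10 after ethanol (SD, n = 4), whereas 17 to 25 reached it in the air arrays left out. The mean of 28 digestive tract genes was 2.37 to 2.40 after air, 2.38 to 2.43 after ethanol and 2.37 in both unexposed arrays. In the air arrays left out it was 3.90 to 4.57, and again 1 gene, the maltase Mal-A1, reached log2 4 in the 8 arrays. The defining markers of the head were present: the mean of 20 photoreceptor genes was 11.49 to 11.78 after air and 11.57 to 11.72 after ethanol. Antennal genes did not keep their level: the mean of 9 abundant antennal odorant-binding proteins was 8.31 to 8.92 after air, 8.61 and 8.65 in the unexposed arrays and 6.39 to 7.51 after ethanol.

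**Figure D1:**
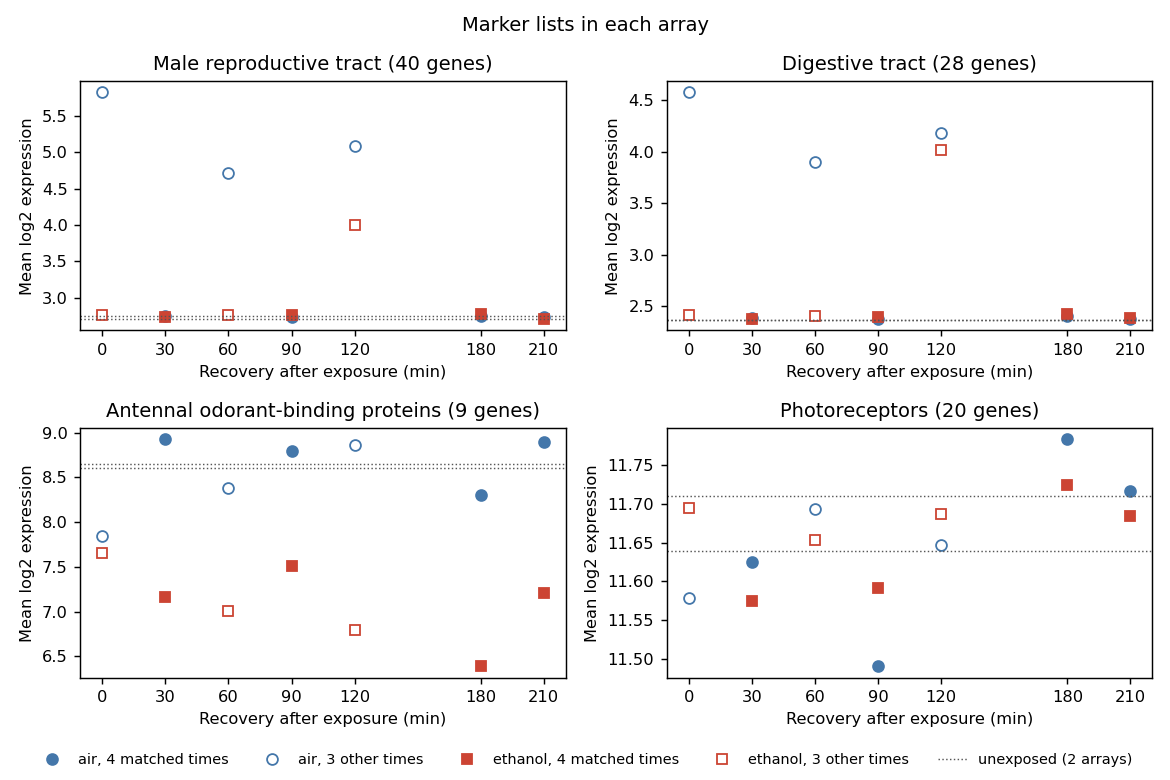
Mean log2 expression of 4 marker lists in each exposed array against minutes of recovery, with air as circles, ethanol as squares, the 4 matched times filled, the 3 other times open, and the unexposed arrays as dotted lines. The filled points of both body tissue lists lie on or near the unexposed lines, and the filled ethanol squares of the antennal list (6.39 to 7.51) lie below the filled air circles (8.31 to 8.92).

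After ethanol, 28 of 7931 features (0.353%) passed the test at an adjusted p of 0.05, 11 of them higher (0.139%) and 17 lower (0.214%). Of these, 7 higher and 15 lower had a single gene symbol. At an unadjusted p under 0.05 there were 240 higher and 583 lower. All 28 had the same sign in 4 of 4 pairs, and in 25 of them the 4 ethanol arrays did not overlap the 4 air arrays. For all features the corresponding shares were 0.971% with every ethanol array above every air array and 3.8% below. Most named falls were antennal genes: 12 of the 15 belong to the lists of antennal genes, of which 15 members were kept. Of these 12, Obp84a and Orco were kept through their air arrays alone and are given as bounds.

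Odorant-binding proteins carry hydrophobic odors through the fluid of the sensory hair. Of 9 abundant antennal members on the array 8 were kept, and 7 of these were lower after ethanol, with a list median of -2.07, against -0.05 over all features. Obp84a read 6.67, 6.45, 5.56 and 6.17 in the air arrays of 30, 90, 180 and 210 min and 3.93, 3.59, 2.67 and 3.68 in the ethanol arrays, with 6.20 and 6.14 in the unexposed arrays. Every ethanol value lay under every air value. All 4 air arrays and no ethanol array reached log2 4, so Obp84a was kept through its air arrays alone, and with its ethanol values raised to log2 4 it was at least 4.64-fold lower. The fit gave a difference of -2.75 ± 0.09 (SE, 4 pairs) on the values as deposited. Its call (adjusted p = 0.000405) rests on ethanol values under the log2 4 minimum.

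Obp59a, which in flies has been tied to the sensing of humidity, read 7.03, 7.05, 5.91 and 7.11 after air and 4.53, 5.03, 2.54 and 4.76 after ethanol. The air array of 180 min was the lowest of the air group, as was the ethanol array of 180 min in its group, and the groups did not overlap (-2.56 ± 0.21, adjusted p = 0.00993). That ethanol value of 2.54 lies under log2 4, so the 180 min difference of -3.37 and the mean rest partly on a value under the minimum. The protein lush binds short-chain alcohols and is needed for the response to the male pheromone. It read 9.10, 8.81, 8.50 and 9.10 after air, 6.58, 7.55, 6.35 and 6.71 after ethanol and 8.59 and 8.69 in unexposed flies. Its fall was -2.08 ± 0.21 (4.22-fold, adjusted p = 0.0163), smallest at 90 min (-1.26) and largest at 30 min (-2.52).

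The other called members were Obp83b, Obp69a, Obp19a and Obp28a. Obp83b went from 11.56 ± 0.31 after air to 9.50 ± 0.62 after ethanol (SD, n = 4), a difference of -2.06 ± 0.17 (SE, adjusted p = 0.00968). Obp69a and Obp19a differed by nearly as much, at -2.05 ± 0.14 (adjusted p = 0.00392) and -2.07 ± 0.18 (adjusted p = 0.0107). Obp28a had the smallest fall of the 7, -1.37 ± 0.13 (2.59-fold, adjusted p = 0.0141), and its ethanol values of 7.57 to 8.72 still lay below its air values of 8.97 to 10.04. The member that was not called, Obp56d, is also made in taste organs and read 13.95 ± 0.05 after air and 13.92 ± 0.06 after ethanol.

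Among 18 other antennal genes on the array 7 were kept and 5 were lower, with a list median of -1.69, or -0.98 with Orco at the bound given below. The antennal protein a5, a relative of phosphatidylethanolamine-binding proteins, read 8.68, 8.59, 8.24 and 9.13 after air and 5.91, 6.54, 5.45 and 5.94 after ethanol. That is a fall of 2.70 ± 0.18 on the log2 scale (6.50-fold, adjusted p = 0.00392), seen in every pair and with no overlap. Os-C, an olfactory-specific secreted protein, read 10.82, 10.62, 9.99 and 10.83 after air and 8.33, 8.83, 7.46 and 8.32 after ethanol (-2.33 ± 0.14, adjusted p = 0.00392). The chemosensory protein a10 differed by -1.83 ± 0.13 (adjusted p = 0.00397), and Antdh, the antennal short-chain dehydrogenase, by -0.98 ± 0.09 (adjusted p = 0.0141), the smallest fall of the 15 named ones at 1.97-fold.

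Orco, the co-receptor that most odorant receptors need, is made by the olfactory neurons themselves and not by support cells. It read 4.79, 4.97, 4.51 and 5.58 after air, 3.56, 3.63, 2.77 and 3.11 after ethanol and 4.67 and 4.41 in unexposed flies. No ethanol array reached the lowest air value. Like Obp84a it reached log2 4 in all air arrays and in no ethanol array, so it was kept through its air arrays alone, and with its ethanol values raised to log2 4 it was at least 1.95-fold lower. The fit gave -1.69 ± 0.21 (adjusted p = 0.0402) on the values as deposited, and this call too rests on ethanol values under log2 4. Snmp1, a membrane protein of pheromone-sensing neurons and support cells, read 7.07 ± 0.11 after air and 6.85 ± 0.11 after ethanol, a difference of -0.22 ± 0.09 that was not called (adjusted p = 0.472).

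The other 3 named falls stood outside these lists. OS9, named for olfactory-specific expression, differed by -1.36 ± 0.13 (adjusted p = 0.0141). Jhedup, a carboxylesterase that arose by duplication of the juvenile hormone esterase gene and is known from the antenna, read 9.70, 9.55, 9.03 and 9.70 after air and 7.03, 7.58, 6.48 and 7.72 after ethanol (-2.29 ± 0.15, 4.89-fold, adjusted p = 0.00392). The glutathione S-transferase GstE4 read 8.47, 8.61, 7.76 and 8.47 after air, 6.18, 5.80, 5.53 and 6.38 after ethanol and 8.19 and 8.20 in unexposed flies. It fell by 2.36 ± 0.13 on the log2 scale (SE, 5.12-fold, adjusted p = 0.00392), and its 90 min difference was its largest.

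All 15 named falls had 4 ethanol values below both unexposed arrays, and in all 15 the lowest air array and the lowest ethanol array were those of 180 min. In 12 of the 15 the 90 min difference was the smallest of the 4. The falls were chosen by their low ethanol values, and the shares of all features with these orders were not counted. These counts therefore cannot show a trait of the 15 genes. In these pooled heads, fewer antennal cells and less of each RNA per cell cannot be told apart. Lists of other head tissues had medians of 0.03 for 20 photoreceptor genes, 0.01 for 20 muscle genes, -0.08 for 18 glial genes and -0.09 for 18 hemocyte genes, with no member called.

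The 28 calls became 2 without the 180 min pair, Obp59a and Obp84a, the latter kept through its air arrays alone. They became 18 without the pair of 90 min, 9 without that of 210 min and 17 when times were not matched. The medians of both antennal lists without the 180 min pair were -1.93 and -1.68. Without any filter on low signals limma called 0 of 17104 features (1079 at an unadjusted p under 0.05), and no named call changed sign under any setting run.

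**Figure D2:**
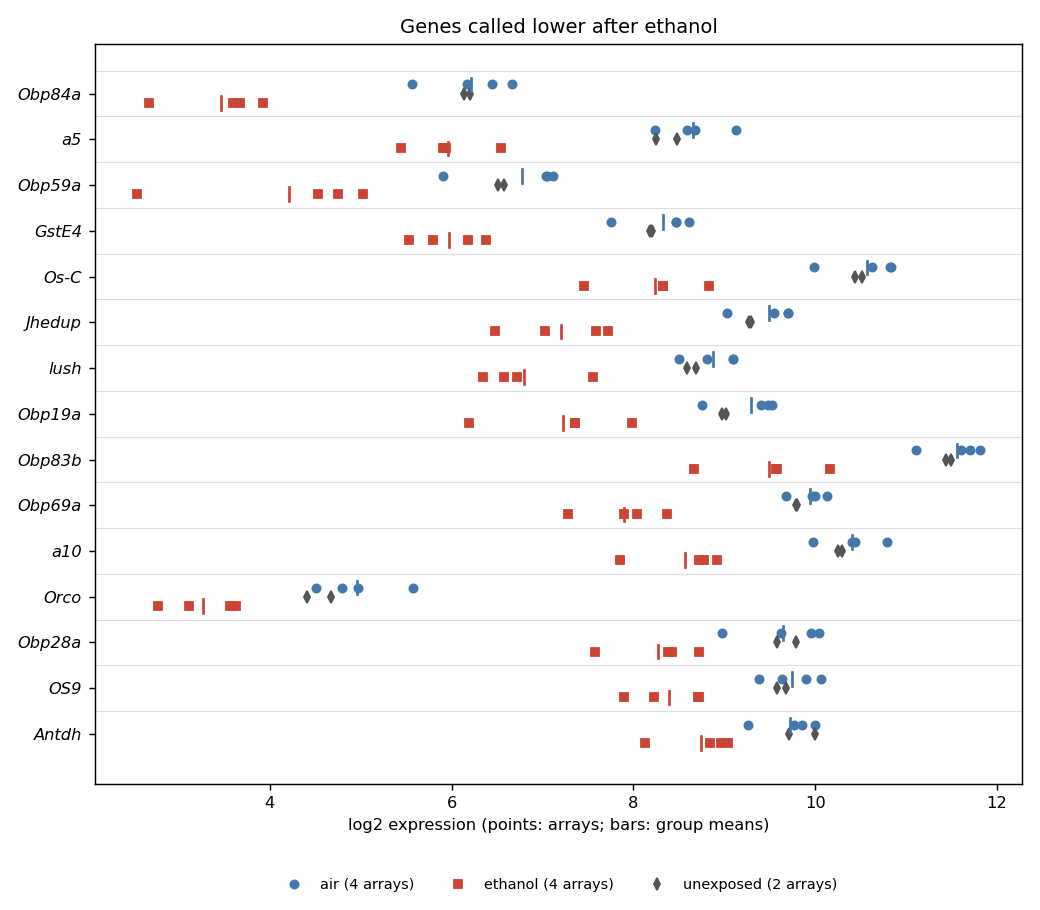
Log2 expression of the 15 named genes called lower after ethanol in each of the 4 air arrays, the 4 ethanol arrays and the 2 unexposed arrays, with bars at the group means. In each row every ethanol square lies left of every air circle, from a fitted difference of -2.75 in Obp84a, whose ethanol values lie under log2 4, to -0.98 in Antdh.

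Odorant-binding proteins known mainly outside the antenna, or not placed, had 15 kept members and no call. Of these 13 lay below 0 (66.0% of all features did) and the list median was -0.15. In 4 of 4 pairs 7 were lower, and 4 after quantile normalization, where 14.5% and 10.3% of all features were. Obp57a, Obp57b and Obp57c were lower in every pair with groups that did not overlap, as in 3.8% of all features. The differences were small: -0.33 ± 0.09 (adjusted p = 0.322), -0.42 ± 0.08 (adjusted p = 0.231) and -0.20 ± 0.07 (adjusted p = 0.428).

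The named rises were fewer and smaller, and 5 of the 7 had groups that did not overlap. CG32512 rose most, from 6.43, 6.91, 6.56 and 6.60 after air to 8.99, 8.09, 8.05 and 8.33 after ethanol, with 6.38 and 6.14 in unexposed flies. Its difference was 1.74 ± 0.21 (3.33-fold, adjusted p = 0.0417), at least 1 log2 in every pair and largest at 30 min (2.55). Only 0.0504% of features were at least 1 log2 higher in all 4 pairs.

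The serine protease gene CG9733 read 6.43, 7.90, 7.51 and 7.69 after air and 7.27, 9.54, 8.86 and 8.90 after ethanol, against 6.27 and 5.63 in unexposed flies. Within each time the ethanol array was higher (1.26 ± 0.14, adjusted p = 0.023), but the ethanol array of 30 min lay below 3 air arrays of later times, and air itself stood 1.43 above unexposed. Spn27A, a serpin that restrains the melanization protease, read 8.39, 8.64, 8.69 and 8.95 after air and 9.10, 10.05, 10.003 and 10.27 after ethanol. Its groups did not overlap, and the rise of 1.19 ± 0.13 (2.28-fold, adjusted p = 0.0235) was smallest at 30 min (0.71).

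Prx6c, a peroxiredoxin, read 10.26, 10.45, 10.23 and 9.67 after air and 11.17, 11.42, 11.24 and 11.002 after ethanol, a rise of 1.05 ± 0.10 (2.08-fold, adjusted p = 0.0117). The unexposed arrays, at 10.74 and 10.54, lay between the groups. Men, the malic enzyme that makes NADPH for lipid synthesis, rose from 12.10 ± 0.13 to 12.99 ± 0.31 (SD, n = 4), by 0.90 ± 0.11 (SE, adjusted p = 0.0479), most at 90 min (1.26). CG33110, a predicted fatty acid elongase, rose by 0.94 ± 0.08 (adjusted p = 0.0117), and SCaMC, a calcium-regulated mitochondrial carrier of ATP, by 0.81 ± 0.09 (adjusted p = 0.023) with overlapping groups.

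The features with the largest rises could not be named, because their probe sets match several genes or none. The largest read 5.04, 6.39, 6.46 and 6.06 after air and 9.77, 10.79, 9.09 and 8.75 after ethanol, with 5.18 and 5.21 in unexposed flies, a rise of 3.61 ± 0.39 (adjusted p = 0.023). In all, 4 rises and 2 falls were of this kind. Among these rises, 1 read 3.29 to 3.94 after air and 5.16 to 6.74 after ethanol. No air array reached log2 4, so it was kept through its ethanol arrays alone.

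**Figure D3:**
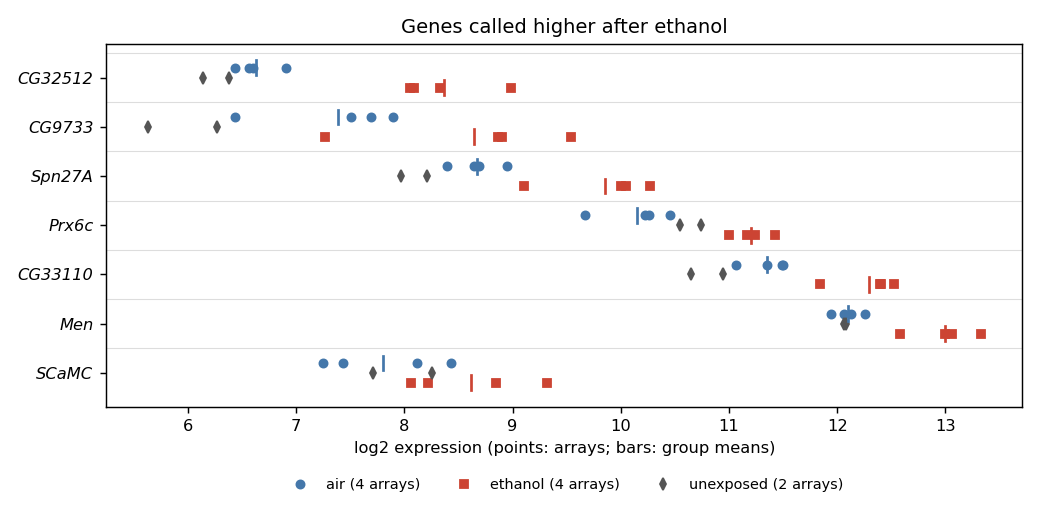
Log2 expression of the 7 named genes called higher after ethanol in each of the 4 air, 4 ethanol and 2 unexposed arrays, with bars at the group means. The ethanol squares of CG32512 (8.05 to 8.99) lie clear of its air circles (6.43 to 6.91), while those of CG9733 and SCaMC overlap their air circles.

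Of genes that were not called, some had small adjusted p-values. Nmdmc, a mitochondrial folate enzyme, read 9.67 ± 0.26 after air and 10.86 ± 0.26 after ethanol (difference 1.19 ± 0.16, adjusted p = 0.0609), and GstE7 9.66 ± 0.27 and 10.84 ± 0.56 (1.18 ± 0.17, adjusted p = 0.0703). Neither overlapped between groups, and nor did CG14630, at 7.33 ± 0.14 and 7.96 ± 0.28 (0.63 ± 0.09, adjusted p = 0.0894). AsnS, asparagine synthetase, differed by 0.85 ± 0.13 (adjusted p = 0.113) and GstD2 by 1.06 ± 0.19 (adjusted p = 0.174). On the lower side, Acsx2, an acyl-CoA synthetase, differed by -1.93 ± 0.26 (adjusted p = 0.0617) with no overlap, and P5cr-2, a proline-making reductase, by -0.77 ± 0.12 (adjusted p = 0.097).

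Families that handle foreign compounds held 1 call, with list medians of -0.18 to -0.06. Of 27 kept glutathione S-transferases 1 was called, the fall of GstE4; 12 lay above 0, and the list median was -0.06, which turned to 0.04 without the 180 min pair. Of 51 cytochrome P450 genes none was called and 38 lay below 0 (66.0% of all features did, and 51.6% after quantile normalization). In 4 of 4 pairs 19 of the 51 were lower, where 14.5% of all features were. Their median was -0.18, and -0.15 after quantile normalization, with 19 again lower in every pair (10.3% of all features were). The P450 with the smallest p, the mitochondrial Cyp12a5, read 8.66 ± 0.11 after air and 8.21 ± 0.09 after ethanol, and Cyp6d5 read 12.30 ± 0.16 and 12.75 ± 0.24 (adjusted p = 0.129 and 0.258). UDP-glycosyltransferases (15 kept, 13 below 0) had a median of -0.16 and no call.

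Alcohol, aldehyde and acetate metabolism had 13 kept genes, of which Men rose and Antdh fell, with a median of -0.03. AcCoAS, which turns acetate into acetyl-CoA, read 12.24, 12.31, 12.26 and 12.40 after air and 12.84, 13.55, 12.83 and 12.46 after ethanol. The groups did not overlap, but the difference shrank from 1.24 at 90 min to 0.06 at 210 min and was not called (0.62 ± 0.18, adjusted p = 0.363). Of 15 antioxidant genes Prx6c was the single call, and of 25 genes of folate, serine and amino acid metabolism none was called (median -0.05).

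Chaperones sat higher without passing. Of 15 kept heat shock genes 13 were above 0 (34.0% of all features were) and 6 were higher in 4 of 4 pairs (5.4% of all features were), with a median of 0.17 and no call. After quantile normalization 14 were above 0 and 5 were higher in 4 of 4 pairs, where 48.4% and 9.42% of all features were. Hsp68, an inducible chaperone, read 5.78, 5.87, 5.78 and 5.90 after air and 5.78, 7.01, 6.94 and 7.50 after ethanol (0.98 ± 0.24, adjusted p = 0.308). At 30 min the values were equal and later ones were apart. The small heat shock protein gene Hsp27 differed by 0.07, 0.93, 0.95 and 1.31 at the 4 times (adjusted p = 0.301), and Hsp26 by 0.10, 0.69, 1.41 and 1.11, with its largest difference at 180 min (adjusted p = 0.308). The co-chaperone gene DnaJ-1, named after values were seen, differed by 1.32 at 30 min and -0.02 at 210 min.

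Neuronal lists had no call, and their medians lay on both sides of the -0.05 of all features. Of 26 transmitter receptors 23 were above 0 (median 0.15, 3 higher in 4 of 4 pairs and 6 after quantile normalization). Of 25 ion channel genes 19 were (median 0.12, 9 higher in 4 of 4 pairs and 10 after it), and of 19 activity-regulated genes 15 were (median 0.15, 3 higher in 4 of 4 pairs and 8 after it). The shares of all features were again 34.0% above 0 and 5.4% in 4 of 4 pairs, and 48.4% and 9.42% after it. Of 18 synaptic vesicle genes 11 were above 0 (median 0.04), and of 12 monoamine genes 3 were (median -0.09, and 0.00 without the 180 min pair). Among the activity-regulated genes Arc2, a capsid-like relative of the mammalian Arc protein, read 6.06 ± 0.10 after air and 6.72 ± 0.25 after ethanol (0.66 ± 0.11, adjusted p = 0.154), and Arc1 12.76 ± 0.10 and 13.02 ± 0.04 (0.26 ± 0.08, adjusted p = 0.372). Both had groups that did not overlap. The potassium channel gene Irk1 differed by 0.37 ± 0.09 (adjusted p = 0.308) and slo, a calcium-activated potassium channel gene with a known part in ethanol tolerance, by 0.08 ± 0.11 (adjusted p = 0.808).

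Of 31 genes with reported ethanol behavior phenotypes 17 were above 0 (34.0% of all features were), with a median of 0.06, and none was called. The adenylyl cyclase rut had the smallest p of them (0.45 ± 0.10, adjusted p = 0.264), and the zinc finger gene hang differed by 0.26 ± 0.11 (adjusted p = 0.477). The clock genes per and tim were higher in 4 of 4 pairs, by 0.31 ± 0.09 and 0.21 ± 0.09 (adjusted p = 0.368 and 0.486), and per read 7.89 to 8.66 over the air arrays alone. Of 26 proteasome subunits all lay below 0 (66.0% of all features did), with a median of -0.09 and a lowest value of -0.18. In 4 of 4 pairs 13 were lower (14.5% of all features were). After quantile normalization that median was -0.04. Then 25 lay below 0 and 6 were lower in 4 of 4 pairs, where 51.6% and 10.3% of all features were.

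**Figure D4:**
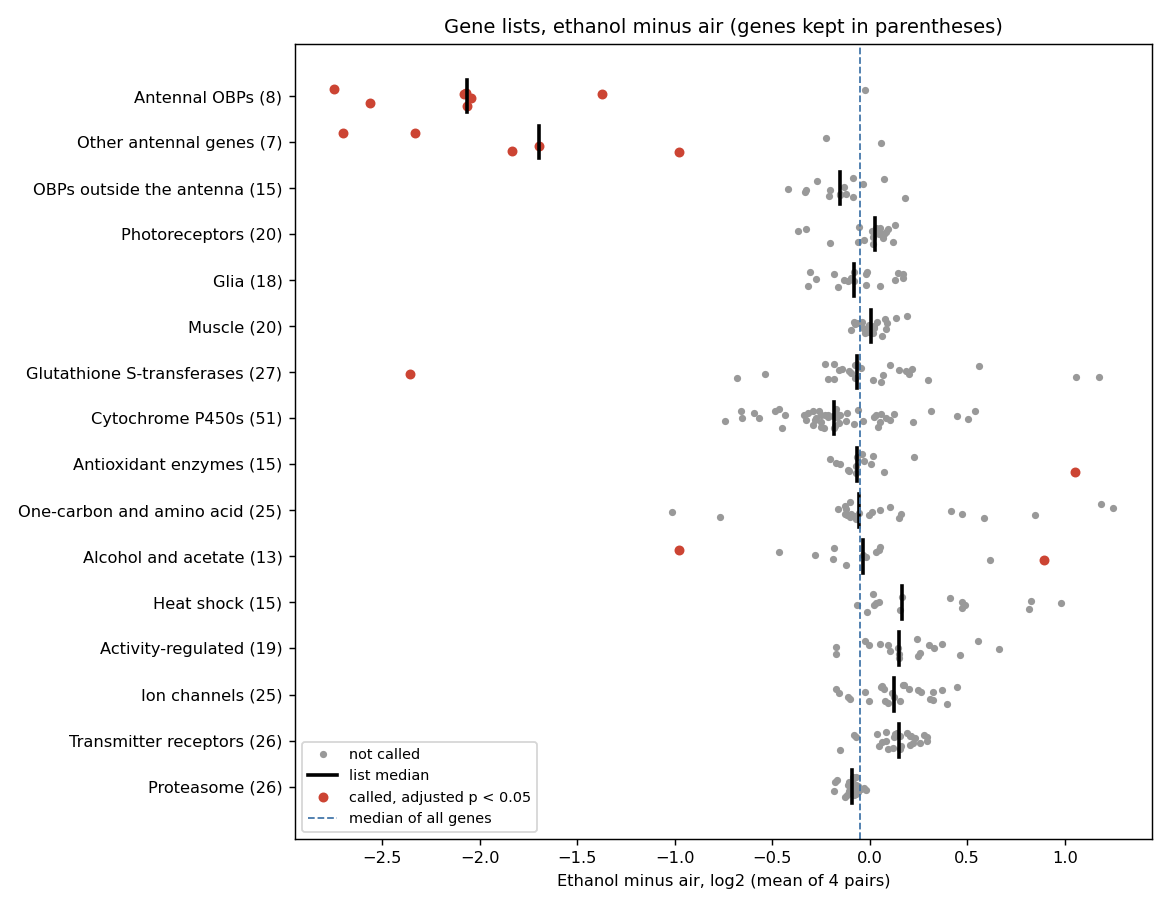
Ethanol minus air difference of each kept gene (mean of 4 pairs, log2) in 16 gene lists, with bars at list medians, red points for genes called at adjusted p < 0.05 and a dashed line at the median of all features (-0.05). The 2 antennal lists (medians -2.07 and -1.69) lie far left of the line, and the other list medians lie between -0.18 and 0.17.

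Whether the difference changed with recovery time was tested as a slope, and limma called 0 of 7931 slopes (584 at an unadjusted p under 0.05, smallest adjusted p 0.31). Counts of features at least 1 log2 apart in a single pair, with no test, were 50 higher (0.63%) and 24 lower (0.303%) at 30 min and 68 (0.857%) and 56 (0.706%) at 90 min. They were 38 (0.479%) and 93 (1.17%) at 180 min and 46 (0.58%) and 64 (0.807%) at 210 min. Between the 2 unexposed arrays, 4 were that far apart. The genes that follow were named partly after their values were seen, and each value rests on 1 pair of arrays.

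Some genes were furthest apart at 30 or 90 min. Among them sug, a zinc finger regulator induced by sugar feeding, differed by 2.75 at 30 min, 0.24 at 90 min, -2.06 at 180 min and -1.15 at 210 min. Its ethanol arrays went from 10.44 at 30 min to 6.27 at 180 min, while its air arrays stayed between 7.69 and 8.33. Gadd45, a stress-response gene, stood at 6.64 in the ethanol array of 30 min and at 4.25 to 4.36 in the other exposed arrays of these 4 times. jhamt, the methyltransferase that completes juvenile hormone, differed by 1.74 and 2.40 at 30 and 90 min and by -0.08 and 0.37 later, and Tdc1, a tyrosine decarboxylase of tyramine synthesis, by 1.80 and 0.96 and then -0.11 and 0.21. The xenobiotic P450 gene Cyp6a8 differed by 1.61 and 2.20 at 30 and 90 min and by -0.51 and -1.28 at 180 and 210 min.

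Others were furthest apart at 180 or 210 min. Lsp2, a storage protein of the fat body, differed by 0.44 and 0.28 at 30 and 90 min and by 3.41 and 2.09 at 180 and 210 min. Gnmt, which methylates glycine and consumes S-adenosylmethionine, differed by -0.06 and -0.21 and then by 2.79 and 2.49, reading 11.93 and 12.37 in the late ethanol arrays against 9.14 and 9.88 in the air arrays of the same times. Shmt, the serine hydroxymethyltransferase that makes glycine, differed by 0.85 and 0.94 at the late times. Sid, a stress-induced DNase, differed by 0.07 and 0.43 early and 1.75 and 2.18 late. CG7227 went the other way, at 0.16 and -0.47 early and -2.30 and -1.90 late. The yolk protein gene Yp3 differed by 2.33 at 210 min alone. At that time the mean of the 16 head fat body markers on the array was 8.30 after ethanol. It was 7.35 to 7.55 in the other 3 ethanol arrays and 7.49 to 7.60 after air. The unexposed arrays had 7.59 and 7.54, and the air arrays left out 7.99 to 8.17. The part of fat body in the 210 min pair was not tested.

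**Figure D5:**
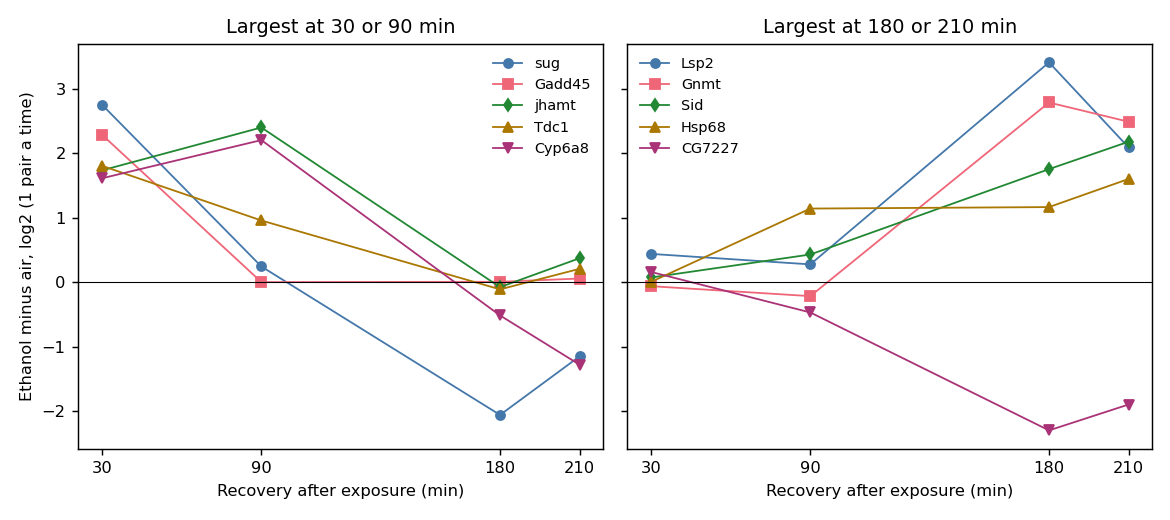
Ethanol minus air difference (log2, 1 pair of arrays a time) against minutes of recovery for 5 genes that were furthest apart at 30 or 90 min and 5 that were furthest apart at 180 or 210 min. sug goes from 2.75 at 30 min to -2.06 at 180 min, and Gnmt from -0.06 at 30 min to 2.79 at 180 min.

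The 6 exposed arrays left out offer pairs at 0, 60 and 120 min. Their air arrays carry body tissue, and so does the ethanol array of 120 min. In that ethanol array 14 of 40 reproductive tract genes and 10 of 28 digestive tract genes reached log2 4. A test of whether the 4 pairs differed from these 3 other pairs called 0 of 7931 features with limma (359 at an unadjusted p under 0.05, smallest adjusted p 0.633). The filter on low signals used the arrays of the 4 pairs alone. It kept 1 of the 40 reproductive tract genes and 1 of the 28 digestive tract genes. The 0 therefore cannot speak for the genes by which the arrays were chosen. Without a filter the test called 9, each with a higher ethanol minus air difference in the 4 pairs. Of the 28 calls, 27 had the same direction in 3 of 3 other pairs, all 17 falls and 10 of 11 rises; over all features 17.4% kept the direction of the 4 pairs in all 3 others, 5.6% as lower and 11.8% as higher. The exception was SCaMC, at -0.42 in the 120 min pair. The 5.6% and 11.8% are shares of all 7931 features, not of those with 1 direction. Among the 5235 features with a mean difference below 0, 444 were lower in all 3 other pairs. Among the 2696 above 0, 933 were higher in all 3, so the background is larger for rises than for falls. In 25 of the 28 the mean difference was smaller in the other pairs. The 28 were chosen by their differences in the 4 pairs, so this count cannot tell whether the pairs differ.

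The pair of 0 min, taken at the end of the exposure, had the smallest difference of all 7 times in each of the 12 called antennal genes. These genes were chosen by the pairs of 30, 90, 180 and 210 min, which favors smaller differences at 0, 60 and 120 min. The share of all features with their smallest difference at 0 min was not counted. The median difference of the 12 genes was -0.27 at 0 min, from -1.02 in a5 to -0.04 in Orco, then -2.18 at 30 min, -1.61 at 60 min, -1.48 at 90 min, -2.50 at 120 min, -2.42 at 180 min and -2.30 at 210 min. Obp84a differed by -0.12 at 0 min and by -2.53 and -3.10 at 60 and 120 min, and lush by -0.09, -1.42 and -2.52. In the air array of 0 min, which carries the most reproductive tract RNA, the antennal odorant-binding protein mean was 7.85, the lowest of the 7 air arrays. The ethanol array of 0 min, with no body tissue, had 7.66, the highest of the 7 ethanol arrays and below both unexposed arrays; the part of body tissue RNA in the 0 min difference was not tested. Of the 7 named rises, 6 also had their smallest difference at 0 min.

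Set against the 2 unexposed arrays in a fit of 3 groups over 10 arrays, 36 features were called after ethanol (0.454%), 20 of them higher (0.252%) and 16 lower (0.202%), and 0 after air by limma (465 at an unadjusted p under 0.05). Both contrasts share the unexposed arrays. Among the named calls, 9 of the 15 falls and 3 of the 7 rises passed against unexposed. These genes were chosen by their ethanol values, and the same ethanol arrays enter this contrast. The counts are therefore no independent test of the calls. The gene a5 stood -2.41 from unexposed after ethanol (adjusted p = 0.00817) and 0.29 after air. Obp84a stood -2.70 after ethanol on the values as deposited (adjusted p = 0.0125) and 0.04 after air. That call of Obp84a again rests on ethanol values under log2 4. CG32512 stood 2.11 above unexposed after ethanol (adjusted p = 0.00817) and 0.37 after air. Nmdmc, not called against air, stood 1.72 above unexposed after ethanol (adjusted p = 0.00817) and 0.53 after air, and Arc2 1.09 (adjusted p = 0.0238) and 0.43.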

How the data were processed

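The values are the log2 expression values the authors deposited, which come from GCRMA (no version given), per the submitters' processing notes. That method corrects background by probe sequence and quantile normalizes arrays together, so a change in total RNA cannot be seen. Intensities and scan data were not used here. The number of arrays limits the precision.

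Of 18952 probe sets, 183 controls were left out; 13647 had 1 gene symbol in the platform annotation, 402 several and 4720 none, and those with several or none were tested but not named. Where probe sets shared a gene, that of the highest mean in the 8 arrays stood for it, which gave 17104 features before the filter. Ethanol minus air was fitted with limma 3.58.1 in R 4.3.3 (lmFit, eBayes) with recovery time as a factor, which leaves 3 residual degrees of freedom, and p-values were adjusted by Benjamini-Hochberg over 7931 features. The SEs printed are the moderated ones, with 3.33 prior degrees of freedom taken from all features. The pairing comes from the recovery time in the labels. The difference from the 3 other pairs was an interaction over 14 arrays, the slope a treatment by time term over 8 arrays, and unexposed flies entered a fit of 3 groups. For falls with no ethanol array at log2 4, a bound was taken with those values raised to log2 4. The models were tested on simulated data.

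The arrays, gene lists and always-named genes were chosen with earlier results of these data known. Named genes were up to 15 called in each direction, largest first, with the same sign in 4 of 4 pairs (rises filled to 10 by the smallest p), up to 4 of each list by smallest p, up to 5 by smallest p for slope and pair differences, and a fixed panel. The 3 largest differences of each pair, GstD1, DnaJ-1, Obp56d, Snmp1, Shmt, Shab and Ca-alpha1D were added after values were seen. In the 37 lists, 4 entries that synonyms matched to the wrong gene were dropped. Alternatives were other filters, scalings, variance models and thresholds, all probe sets, no matching of times, and leaving out a pair; single-symbol genes alone and agreement with the other pairs were added later. No coordinates or sequences are given, since the values name no genome build.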

Additional observations from a re-analysis of the deposited data

Results flagged for a closer look

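Of 172 groups of 4 arrays tested over the genes named, 11 held 1 array far from the other 3. Chance gives about 1 in 20 for genes named without regard to their values. Some genes here, such as Gadd45, Yp3 and CG5966, were named for a large difference in 1 pair, and GstD1 and Obp56d after values were seen. The count therefore cannot be set against that rate. The air array of 180 min was the low one in Obp59a (5.91), GstE4 (7.76) and Obp19a (8.75), and the high one in Sid (4.57) and Yp3 (8.21). The air array of 210 min was the high one in GstD1 (13.59) and CG5966 (7.40), and the air array of 30 min the low one in GstE7 (9.26). The ethanol array of 210 min was the high one in Yp3 (10.11) and Obp56d (14.02), and the ethanol array of 30 min in Gadd45 (6.64).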

How the results depend on the processing

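The 28 calls of ethanol against air were 24 to 40 under the other filters on low signals, quantile or median scaling, all probe sets, array weights, trended robust variances and adjusted p < 0.10, and 22 over single-symbol genes alone. They were 0 without a filter, 15 with the spread of all 7 pairs, 11 with a 1.5-fold minimum, 17 with no replicate block (times not matched) and 16 with minutes as a linear term. Leaving out 1 time pair gave 2 to 32 (32, 18, 2 and 9 with the pair of 30, 90, 180 and 210 min left out). The 22 named calls all kept their sign under every setting run and all passed under quantile or median scaling; 11 passed with no replicate block. The test against the 3 other pairs called 9 without a filter and 0 otherwise. The slope called 9 with trend and robust variances and 0 to 28 without 1 pair (3 without 30 min, 28 without 90 min). Agreement with the other pairs was 28 of 28 without the 120 min pair.

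Among genes that were not called, the sign turned for sug with array weights (0.38), without 180 min (0.62) and without 210 min (0.31), for CG5966 without 180 or 210 min (-0.32 and -0.032), for Yp3 without 210 min (-0.084), for Cyp6a8 without 90 min (-0.060), for slo without 180 min (-0.017), for Obp56d with median scaling (0.022), and for EbpIII with quantile scaling (-0.011) and without 90 or 180 min (-0.055 and -0.0075). The cause of these changes was not tested. The ethanol values of Orco and Obp84a lie near the array medians of 2.88 to 2.96, where signal over background limits the precision. The 180 min ethanol value of Obp59a (2.54) lies below those medians.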
